A study of Mus musculus with 6 samples.

Results

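Interferon response and antigen presentation genes were followed in mouse hearts with a knockout of Rbpms and in wildtype hearts. The members were the rows of the expression table whose gene symbol stood in a list of 38 named genes, and all 38 were found among 20893 rows. The list was composed by gene function, with earlier results of these data known. Of the 6 libraries, 3 came from hearts with the germline knockout, labelled R1KO, and 3 from wildtype hearts, on the C57BL6/J background. The wildtype hearts were littermate controls by the study's design text. Rbpms encodes an RNA-binding protein with an RNA recognition motif. The sources used here do not give the allele or which part of the gene was deleted. The stage is uncertain, since the study's title speaks of embryonic hearts and the design text of neonatal ones. Separate animals are not stated for the libraries, and p-values therefore measure the spread between libraries, which may be technical.

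Interferons are secreted proteins that cells release when nucleic acids of a virus, or their own nucleic acids out of place, reach an RNA or DNA sensor. Type I interferons signal through the kinases JAK1 and TYK2 to a complex that holds STAT2 and IRF9 and binds the interferon-stimulated response element in the promoters of antiviral genes. Interferon gamma signals through JAK1 and JAK2 to promoters with a gamma-activated site, and it is the stronger inducer of the immunity-related GTPases and of the machinery that loads peptides onto class I molecules. In heart, most cells carry interferon receptors, and resident macrophages and endothelial cells are prominent among the cells that respond.

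The values are read numbers per gene that the authors multiplied by a factor for each library and rounded, called values in the text. The factors, recovered from the spacing of low values, ran from 0.8524 to 1.1798 and gave 4163279 to 5805240 reads a library, so that a value of 40 rests on about that many reads. All 38 members passed the filter on low values (10 or more in 3 or more libraries), as did 14974 genes in all. Rbpms itself held 375, 340 and 507 in the knockout libraries against 1182, 1176 and 1317 in the wildtype libraries. The log2 fold change stood at -1.61 (standard error 0.14, limma adjusted p = 0.0124). Knockout replicate 3 stood apart. It was the highest of the 6 libraries in 27.1% of all tested genes and the lowest in 25% of them, against 11.8% to 16.3% and 12.7% to 16.1% for each of the other libraries. Knockout replicate 3 and wildtype replicate 1 also held 1763 and 1770 of Xist, which is transcribed from the inactive X chromosome of females, where the other 4 libraries held 2 to 14. The labels give no sex, so each group held 1 library with high Xist and 2 with low Xist. Cardiomyocyte markers summed to 20045 to 22405 in knockout and 20762 to 22610 in wildtype libraries, with all 8 listed genes tested, as a heart library should hold.

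Promoter sequences of 30 of the 38 members were matched by symbol in RefSeq's table for the build GRCm38.p6, a different build from the mm39 of the expression table. Entries for Dhx58, Zbp1, Oas2, Usp18, Parp9, Parp14, Ifi27 and Rtp4 were not matched. The 250 bases before each annotated start were searched on both strands for GAAANNGAAA, the core of the interferon-stimulated response element, and for TTCNNNGAA, the gamma-activated site, with overlapping matches counted. The first motif was found upstream of 12 of the 30 members (40%) and of 3.03% of the 11066 tested genes with a promoter sequence. The second was found upstream of 7 members (23.3%) and of 7% of tested genes. A match is a description of the letters and does not show binding. The 6 windows printed here belong to members whose values carry the results given further on. Isg15, Ifit1 and Rsad2 had high values or a split in knockout replicate 3, and Irgm1, Igtp and B2m were lower in each knockout library. Capitals mark the letters of GAAANNGAAA, or of TTTCNNTTTC where the match lies on the other strand, and overlapping matches run together.
Isg15, chr4:156200819-156201068, reverse strand: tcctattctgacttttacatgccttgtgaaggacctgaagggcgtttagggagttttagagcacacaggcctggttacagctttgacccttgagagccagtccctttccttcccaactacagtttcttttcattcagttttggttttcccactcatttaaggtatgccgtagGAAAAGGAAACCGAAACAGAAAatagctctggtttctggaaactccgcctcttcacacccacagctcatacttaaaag
Ifit1, chr19:34640639-34640888, forward strand: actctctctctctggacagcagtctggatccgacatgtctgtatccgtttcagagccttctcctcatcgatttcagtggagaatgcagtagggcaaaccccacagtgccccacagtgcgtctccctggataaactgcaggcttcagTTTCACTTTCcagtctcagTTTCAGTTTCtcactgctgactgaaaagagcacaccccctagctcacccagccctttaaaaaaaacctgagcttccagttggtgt
Rsad2, chr12:26456453-26456702, reverse strand: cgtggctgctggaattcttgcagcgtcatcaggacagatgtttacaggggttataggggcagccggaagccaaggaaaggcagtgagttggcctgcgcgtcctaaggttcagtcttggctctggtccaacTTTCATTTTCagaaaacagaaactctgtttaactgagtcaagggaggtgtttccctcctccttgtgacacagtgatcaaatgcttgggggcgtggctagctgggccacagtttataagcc
Irgm1, chr11:48871421-48871670, reverse strand: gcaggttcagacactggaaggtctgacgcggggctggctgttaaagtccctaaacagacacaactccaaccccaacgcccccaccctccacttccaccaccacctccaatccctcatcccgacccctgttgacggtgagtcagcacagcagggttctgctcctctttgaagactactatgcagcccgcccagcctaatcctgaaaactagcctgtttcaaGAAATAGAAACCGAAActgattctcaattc
Igtp, chr11:58199306-58199555, forward strand: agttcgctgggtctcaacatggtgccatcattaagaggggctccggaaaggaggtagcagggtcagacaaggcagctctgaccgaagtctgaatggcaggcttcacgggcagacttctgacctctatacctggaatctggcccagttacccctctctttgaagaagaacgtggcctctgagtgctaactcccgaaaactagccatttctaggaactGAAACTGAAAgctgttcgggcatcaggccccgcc
B2m, chr2:122147437-122147686, forward strand: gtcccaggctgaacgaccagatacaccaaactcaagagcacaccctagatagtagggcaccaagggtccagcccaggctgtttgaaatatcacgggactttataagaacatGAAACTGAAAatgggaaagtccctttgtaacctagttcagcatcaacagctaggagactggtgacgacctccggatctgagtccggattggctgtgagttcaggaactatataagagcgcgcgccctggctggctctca
Isg15 held 3 overlapping matches, the first base of the nearest lying 66 bases before the start. Ifit1 held 2 separate matches on the opposite strand, at 104 and 85 bases, and Irgm1 held 2 overlapping ones, at 30 and 24 bases. Rsad2, Igtp and B2m held 1 each. Igtp also held TTCNNNGAA, not in capitals, at 45 bases.

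In knockout hearts the members lay slightly lower, and no single member passed the test over all genes. By limma 0 of 38 members had an adjusted p under 0.05 in either direction, where 0.508% of all tested genes were higher and 0.434% lower in knockout hearts, and 0 members passed by voom. The calls over all genes numbered 76 higher and 65 lower, where scaling to the library total gave 42 higher and 58 lower and voom 28 higher and 44 lower. Before adjustment, at p under 0.05, limma gave 0 higher and 6 lower members (15.8% lower), against 8.54% higher and 7.86% lower among all tested genes. The knockout and wildtype values did not overlap in 8 members, all of them lower in knockout hearts. That is 21.1% of the members, where 10.9% of all tested genes were lower without overlap and 11.0% higher without overlap. The median log2 fold change was -0.13 over the members and 0.00 over all tested genes, and 26 members had a fold change below 0. The counts hide a difference between the knockout libraries. The members' median difference from the wildtype mean was -0.20 and -0.20 on the log2 scale in knockout replicates 1 and 2 and 0.12 in knockout replicate 3. Without knockout replicate 3, 37 members were tested, 30 had a fold change below 0, and their median was -0.22. In that fit 17 of the 37 were lower without overlap, a larger share than the 18% of all tested genes. There 1 of the 37 was higher without overlap, against 17.1% of all tested genes, and 1 member, Ifit1, passed. In these bulk libraries, fewer cells of a type and less RNA per cell cannot be told apart.

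**Figure D1:**
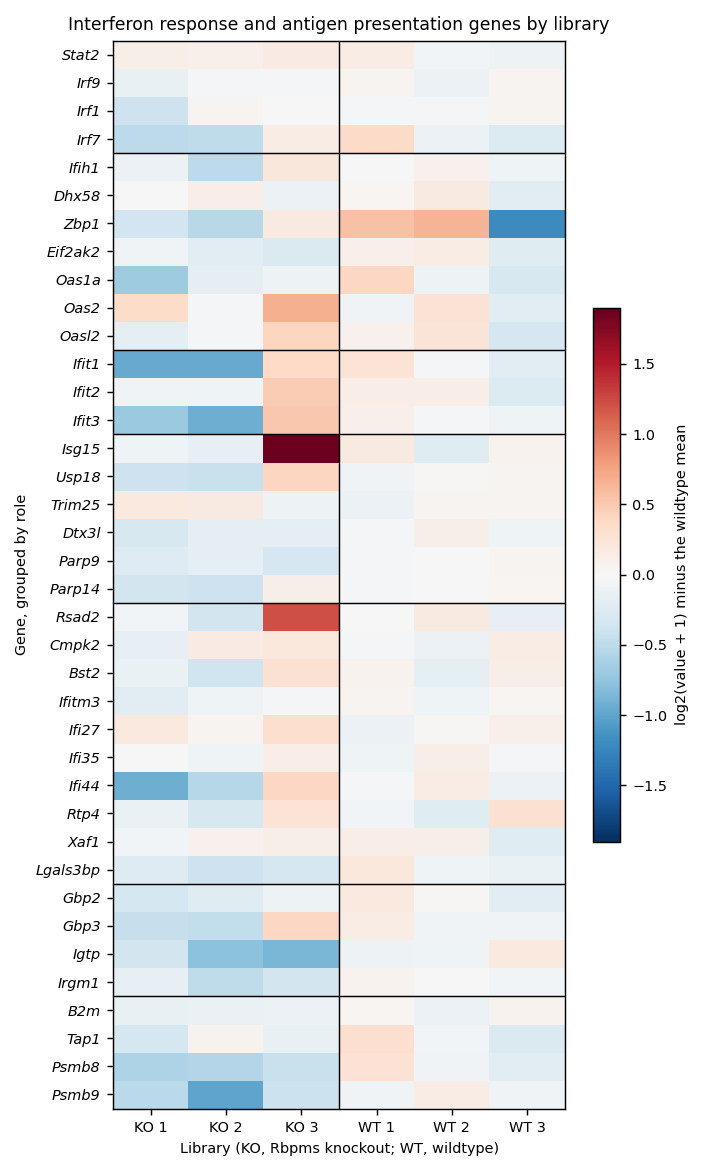
Each row is a member and each column a library, with the 3 knockout libraries left of the 3 wildtype libraries, and the colour gives log2(value + 1) minus the mean of the wildtype libraries. Knockout replicates 1 and 2 are mostly blue, knockout replicate 3 holds the deepest red at Isg15 (1.87) and Rsad2 (1.23), and the antigen presentation rows at the bottom are pale to mid blue in the knockout libraries apart from Tap1 in replicate 2.

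**Figure D2:**
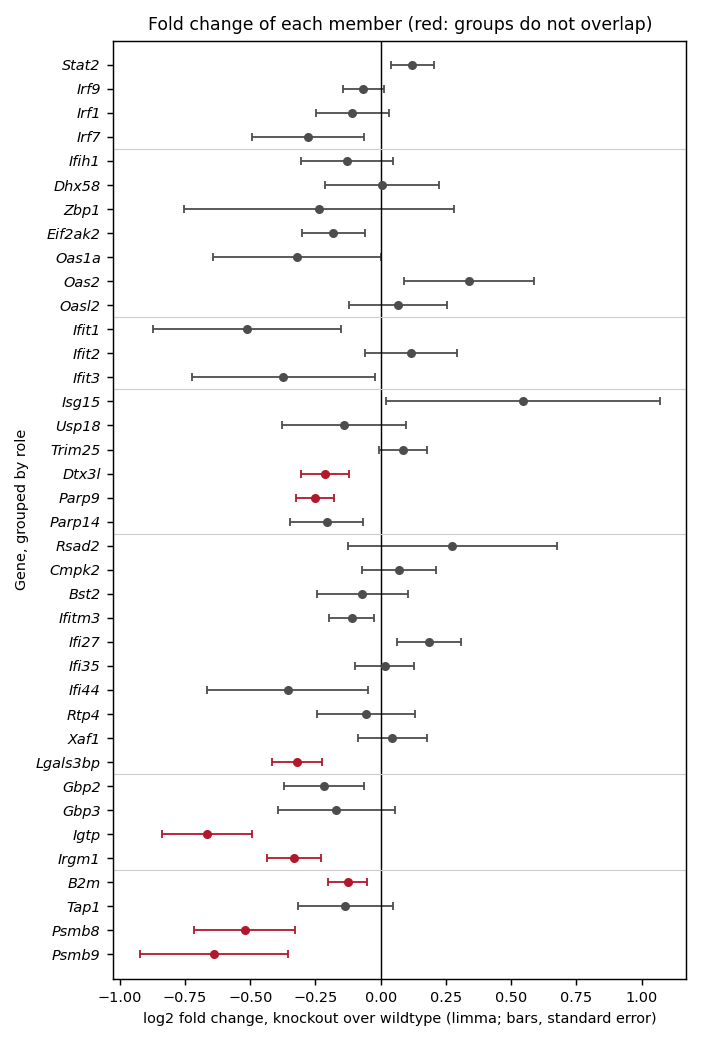
Points give the fitted log2 fold change of each member, knockout over wildtype, with bars of 1 standard error, from limma on log2(value + 1). The 8 members drawn in red, whose groups do not overlap, all lie left of 0, and the widest bars belong to Isg15 and Zbp1.

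The transcription factors of the pathway were close to their wildtype levels. Stat2 held 329, 323 and 338 in knockout libraries and 334, 294 and 284 in wildtype libraries, and its groups overlapped. The log2 fold change of 0.12 (standard error 0.08, limma adjusted p = 0.509) had the smallest p of the 4 factors. Irf9, the DNA-binding partner of STAT2, held 333 to 361 in knockout and 340 to 381 in wildtype libraries. Irf1, which activates class I and immunoproteasome genes, held 110 to 150 in knockout and 141 to 150 in wildtype libraries. Irf7, the factor that amplifies type I interferon production, held 109, 110 and 170 in knockout libraries and 198, 143 and 129 in wildtype libraries. For Irf7, knockout replicates 1 and 2 were thus under the wildtype range and replicate 3 within it (log2 -0.28, standard error 0.22, limma adjusted p = 0.561).

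Among the sensors and synthetases, which recognise double-stranded RNA or answer to it, 0 of 7 had groups that did not overlap. Over all tested genes, 10.9% were lower and 11.0% higher without overlap. Eif2ak2, the kinase PKR that stops translation when it binds such RNA, had the smallest p, with 216, 197 and 186 in knockout and 242, 249 and 192 in wildtype libraries (log2 -0.18, standard error 0.12, limma adjusted p = 0.49). Ifih1, the sensor MDA5, held 123 and 94 in knockout replicates 1 and 2 and 155 in knockout replicate 3, with 125 to 141 in wildtype libraries. Knockout replicate 3 was thus above, and the other 2 below, each wildtype library. Dhx58, the regulator LGP2, held 27 to 32 in knockout and 25 to 33 in wildtype libraries, a fitted log2 fold change of 0.01 with a standard error of 0.22. The 2'-5' oligoadenylate synthetases make the messenger that activates RNase L, and they differed among themselves. Oas2 held 39, 30 and 49 in knockout and 29, 37 and 26 in wildtype libraries. Oas1a held 9, 13 and 14 in knockout against 20, 14 and 12 in wildtype libraries, and belongs to a tandem family of similar copies, so reads may have been split between copies. Oasl2 held 180 to 271 in knockout and 162 to 241 in wildtype libraries. Outside the members, and picked out after its values were seen, Oas3 held 28, 16 and 27 in knockout and 9, 7 and 6 in wildtype libraries. These are few reads, without overlap (log2 1.54, standard error 0.33, limma adjusted p = 0.0663). Oas1c went the other way, with overlap, at 30, 20 and 29 in knockout and 30, 44 and 38 in wildtype libraries. Zbp1, a sensor of Z-form nucleic acids, was near the floor of the test at 7 to 12 in knockout and 4 to 17 in wildtype libraries.

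In the IFIT genes the knockout libraries differed among themselves. IFIT proteins bind the 5' end of foreign mRNA, and the genes sit in a row on chromosome 19 of mm39, where the starts of Ifit2 and Ifit3 lie 32.8 kb apart and those of Ifit3 and Ifit1 57.3 kb apart. Ifit1 (chromosome 19, 34618271 to 34627409) held 27, 27 and 70 in knockout libraries against 64, 52 and 46 in wildtype libraries. Knockout replicates 1 and 2 were below each wildtype library and replicate 3 above each. The fitted log2 fold change of -0.51 (standard error 0.36) did not pass (limma adjusted p = 0.521). Without knockout replicate 3 it was -0.96 (limma, adjusted p = 0.0252), the single member called under any alternative tried, and the adjusted p ran from 0.0252 to 0.818 over 18 alternatives. Ifit3 held 27, 23 and 64 in knockout libraries against 48, 44 and 42 in wildtype libraries, again with replicate 3 on the other side of the wildtype values. A close copy, Ifit3b, held 4, 10 and 14 in knockout and 17, 22 and 20 in wildtype libraries, and reads may have been split between the copies. Ifit2 held 158, 156 and 232 in knockout and 181, 180 and 138 in wildtype libraries, where replicates 1 and 2 lay within the wildtype range.

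In 7 members knockout replicates 1 and 2 lay below all wildtype libraries and knockout replicate 3 above all of them. That is 18.4% of the members, where 3.26% of all tested genes had this order, and the opposite order was seen in 0 members and 2.67% of all tested genes. This order was picked out after the values were seen, so no test was made of it. The 7 were Ifit1, Ifit3 and Ifih1, given above, with Ifi44, Usp18, Gbp3 and Parp14. Ifi44, an interferon-induced cytoplasmic protein, held 32, 42 and 81 in knockout and 60, 68 and 57 in wildtype libraries. Usp18, the protease that removes ISG15 from its targets and dampens the type I receptor, held 46, 45 and 81 in knockout against 58, 62 and 63 in wildtype libraries. Gbp3, a guanylate-binding protein, held 115, 112 and 205 in knockout against 171, 148 and 149 in wildtype libraries. In knockout replicate 3, Ifi44, Gbp3 and Usp18 were 1.19, 1.2 and 1.29 times the highest wildtype library. Parp14, an ADP-ribosyltransferase, held 166, 160 and 229 in knockout and 207, 209 and 217 in wildtype libraries. Of the 7 members, 5 had a promoter sequence and 3 of those held GAAANNGAAA, namely Gbp3, Ifit1 and Ifit3. TTCNNNGAA was found in 0 of the 5.

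**Figure D3:**
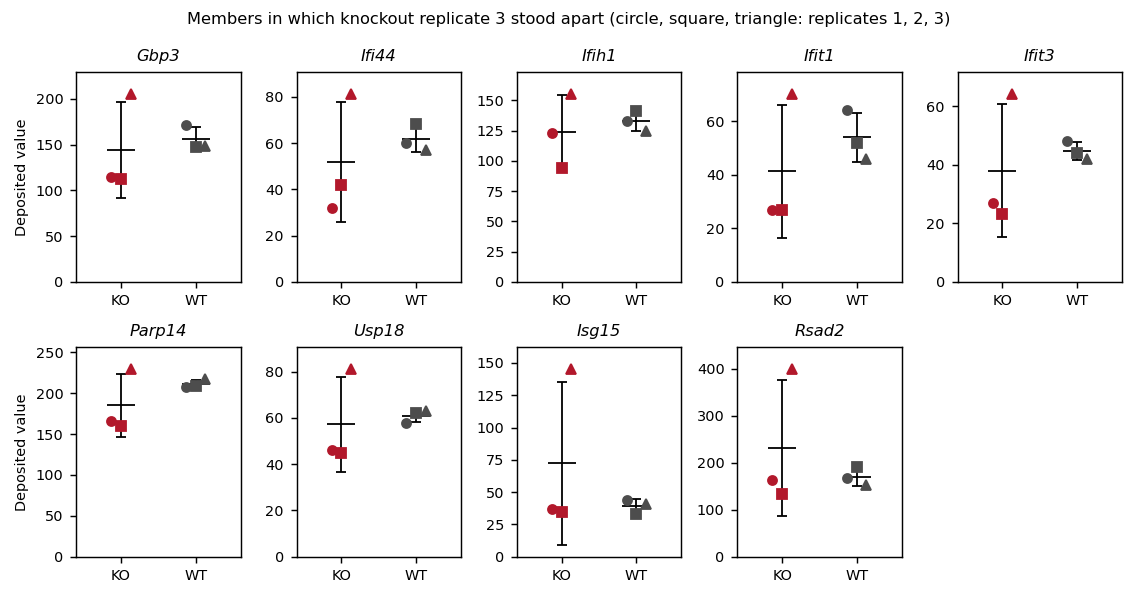
Deposited values are plotted for the 7 members with this order and for Isg15 and Rsad2, with circles, squares and triangles for replicates 1, 2 and 3, horizontal bars for the mean and whiskers for 1 SD (n = 3). The knockout triangle is the highest point in each panel, and in the first 7 panels the knockout circle and square lie under the wildtype points.

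Isg15 and Rsad2 were the highest in knockout replicate 3 by the widest margin. Isg15, a ubiquitin-like protein that is attached to other proteins, held 37, 35 and 145 in knockout and 44, 33 and 41 in wildtype libraries. Knockout replicates 1 and 2 lay within the wildtype range, so the fitted log2 fold change of 0.55 (standard error 0.53, limma adjusted p = 0.66) rests on a single library. Rsad2, the radical-SAM enzyme viperin, held 163, 133 and 399 in knockout and 168, 191 and 152 in wildtype libraries (log2 0.27, standard error 0.40, limma adjusted p = 0.788). Its neighbour Cmpk2, a mitochondrial nucleotide kinase whose start lies 12.8 kb away on chromosome 12 in the opposite direction, did not share that value. Cmpk2 held 106, 131 and 136 in knockout and 115, 109 and 130 in wildtype libraries. Genes that carry out ISG15 conjugation, picked out after their values were seen, did not share 1 order of the libraries. Ube2l6, the conjugating enzyme, held 157, 171 and 352 in knockout and 175, 136 and 142 in wildtype libraries. The activating enzyme Uba7 held 260, 280 and 208 in knockout and 314, 277 and 283 in wildtype libraries, with knockout replicate 3 the lowest of the 6. Herc6, the main ligase for ISG15 in mouse, held 39, 35 and 41 in knockout and 53, 55 and 60 in wildtype libraries, with no overlap (log2 -0.54, standard error 0.18, limma adjusted p = 0.18). Isg20, an exonuclease induced by interferon, held 27, 26 and 178 in knockout and 17, 20 and 20 in wildtype libraries.

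Knockout replicate 3 was the highest of all 6 libraries in 17 of 38 members (44.7%), where it was the highest in 27.1% of all tested genes. Knockout replicates 1 and 2 were the lowest in 12 members each (31.6%), against 13.4% and 13.9% of all tested genes, and the highest in 1 and 0 members. Wildtype replicate 1, the other library with high Xist, was the highest in 9 members (23.7%, against 12.6% of all tested genes). Markers of other cells also moved with knockout replicate 3. The 8 listed erythroid genes, all in the table and 7 of them tested, summed to 811, 907 and 2144 in knockout libraries and to 782, 741 and 957 in wildtype libraries. Of these, Alas2 and Slc4a1 held 1004 and 427 in knockout replicate 3, where the wildtype libraries held 226 to 336 and 69 to 76. The 6 listed epicardial genes, all tested, summed to 1464, 1486 and 903 in knockout libraries and to 1334, 1422 and 1259 in wildtype libraries. That list went both ways. In knockout replicate 3, Upk3b and Msln held 79 and 136, where the wildtype libraries held 283 to 313 and 350 to 415. Wt1 held 265, 259 and 245 in knockout libraries and 191, 225 and 218 in wildtype libraries. Krt8 rose, with 93, 90 and 78 in knockout and 35, 31 and 32 in wildtype libraries (log2 1.38, standard error 0.17, limma adjusted p = 0.0202). The 5 neutrophil and monocyte genes in the table, of 7 listed, summed to 138, 104 and 185 in knockout libraries and to 138, 116 and 108 in wildtype libraries. No marker of these lists that was in the table was at 0 in all libraries. The part of these cells, of sex and of depth in the values of knockout replicate 3 was not tested. Among the 4 libraries with low Xist, 17 members (44.7%) were lower and 2 (5.26%) higher in both knockout than in both wildtype libraries, against 21.4% and 21% of all tested genes. Between the 2 libraries with high Xist, 20 members were higher and 18 lower in the knockout library.

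**Figure D4:**
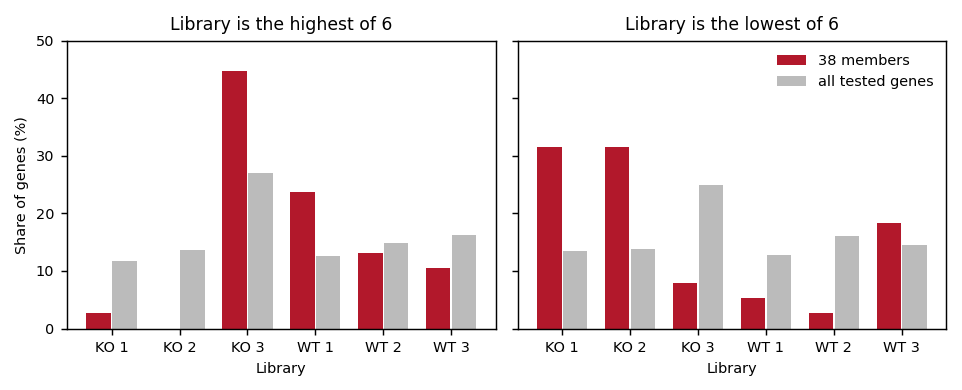
Bars give the share of genes in which each library was the highest (left panel) or the lowest (right panel) of the 6, for the 38 members in red and all tested genes in grey. Knockout replicate 3 is the highest in 44.7% of members, and knockout replicates 1 and 2 are each the lowest in 31.6%.

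A second set of members was lower in every knockout library, replicate 3 included. These 8 were Igtp, Irgm1, Psmb8, Psmb9, B2m, Parp9, Dtx3l and Lgals3bp, none with an adjusted p under 0.05. Igtp and Irgm1 are immunity-related GTPases, which defend cells against pathogens held in vacuoles. Igtp (chromosome 11, 58090382 to 58098417, forward strand of mm39) held 99, 73 and 69 in knockout against 118, 119 and 144 in wildtype libraries, or 80.3 ± 16.3 in knockout and 127 ± 14.7 in wildtype hearts (SD, n = 3 each). Its log2 fold change of -0.67 was the lowest of the members (standard error 0.17, limma adjusted p = 0.106). The annotated span of Irgm2 on the same strand overlaps Igtp by 7974 bases, so reads in shared exons cannot be told apart. Irgm1 held 224, 179 and 197 in knockout and 262, 250 and 241 in wildtype libraries (log2 -0.33, standard error 0.10, limma adjusted p = 0.158). The guanylate-binding protein Gbp2 held 80, 86 and 94 in knockout against 115, 102 and 87 in wildtype libraries, and its groups overlapped. Among the 8 tested GTPases of this kind outside the members, 0 had an adjusted p under 0.05 by limma. At an unadjusted p under 0.05, 3 were lower and 0 higher, where 7.86% and 8.54% of all tested genes were. Iigp1 had the smallest p, with 183, 197 and 153 in knockout against 405, 267 and 270 in wildtype libraries (log2 -0.80, standard error 0.17, limma adjusted p = 0.075). Irgm2 held 144, 141 and 141 in knockout against 192, 179 and 179 in wildtype libraries.

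The proteins of class I antigen presentation cut peptides in the immunoproteasome, carry them through the TAP transporter and load them onto a heavy chain paired with beta-2 microglobulin. Both immunoproteasome subunits among the members were lower. Psmb8 held 38, 39 and 43 in knockout and 70, 55 and 50 in wildtype libraries, or 40 ± 2.65 in knockout and 58.3 ± 10.4 in wildtype hearts (SD, n = 3 each; log2 -0.52, standard error 0.19, limma adjusted p = 0.222). Psmb9 held 13, 9 and 14 in knockout and 18, 21 and 18 in wildtype libraries (log2 -0.64, standard error 0.28, limma adjusted p = 0.304), on few reads. The third such subunit, Psmb10, was not lower, at 318, 327 and 315 in knockout against 305, 302 and 314 in wildtype libraries. The standard subunits Psmb5, Psmb6 and Psmb7, which these replace, had no unadjusted p under 0.05, and Psmb6 had the smallest p, with 444, 448 and 430 in knockout against 479, 442 and 486 in wildtype libraries (log2 -0.09, standard error 0.07, limma adjusted p = 0.556). B2m, the light chain, held 345, 347 and 352 in knockout and 389, 353 and 400 in wildtype libraries, where the groups stood apart by a value of 1 between knockout replicate 3 and wildtype replicate 2 (log2 -0.13, standard error 0.07, limma adjusted p = 0.43). Tap1, a chain of the transporter, held 90, 120 and 103 in knockout against 143, 110 and 94 in wildtype libraries, and its groups overlapped. The 5' ends of Tap1 and Psmb9 overlap by 212 bases on opposite strands of chromosome 17, and those of Parp9 and Dtx3l by 682 bases on chromosome 16. The library kit keeps strand, but no source used here gives the strand setting of the counting. Rtp4 is likewise overlapped on its own strand by 39791 bases of the lncRNA Gm45338.

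The heavy chain H2-K1, listed with the pathway and not a member, fell in knockout hearts. Its gene (chromosome 17, 34214991 to 34219321, reverse strand of mm39) is on the chromosome of Psmb8, Psmb9 and Tap1, and it held 261, 245 and 272 in knockout libraries against 352, 386 and 381 in wildtype libraries. These are 259 ± 13.6 in knockout and 373 ± 18.4 in wildtype hearts (SD, n = 3 each). The log2 fold change stood at -0.52 (standard error 0.08, limma adjusted p = 0.0265). Among the alternatives that lost the call were the fits without knockout replicate 1 and without each wildtype replicate in turn, and limma without trend or robust moderation. The other classical heavy chain, H2-D1, held 518, 487 and 510 in knockout against 517, 474 and 527 in wildtype libraries (log2 0.00, limma adjusted p = 0.993). Class I heavy chains are similar in sequence, so reads that fit several copies leave both values uncertain. Of 21 tested class I genes outside the members, H2-K1 fell and 0 rose. At p under 0.05 without adjustment 2 were lower and 0 higher, where 7.86% and 8.54% of all tested genes were. Without overlap between groups, 6 of the 21 were lower and 1 higher, where 10.9% and 11.0% of all tested genes were. A fold change below 0 was found in 16 of the 21. Of 5 tested class II genes, which mark antigen-presenting cells, 0 passed by limma and 0 reached an unadjusted p under 0.05. H2-Aa had the smallest p there, with 7, 12 and 8 in knockout against 18, 16 and 12 in wildtype libraries (log2 -0.72, standard error 0.33, limma adjusted p = 0.312).

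Parp9 and Dtx3l encode an ADP-ribosyltransferase and the ubiquitin ligase it partners, and both were lower. Parp9 held 300, 312 and 285 in knockout and 346, 355 and 368 in wildtype libraries (log2 -0.25, standard error 0.07, limma adjusted p = 0.142). Dtx3l held 201, 221 and 221 in knockout against 243, 268 and 236 in wildtype libraries (log2 -0.21, standard error 0.09, limma adjusted p = 0.285). Trim25, the ligase that acts on the RNA sensor RIG-I, held 715, 711 and 586 in knockout and 582, 654 and 655 in wildtype libraries. Lgals3bp, a secreted galectin-binding glycoprotein, held 414, 374 and 396 in knockout and 568, 467 and 452 in wildtype libraries (log2 -0.32, standard error 0.10, limma adjusted p = 0.147). Of the 8 members lower in every knockout library, 7 had a promoter sequence. Of those, 3 held GAAANNGAAA and 2, Igtp and Psmb8, held TTCNNNGAA. Over the 30 members with a sequence these shares were 40% and 23.3%. The 12 listed macrophage genes, all tested and none at 0, summed to 1842 to 2210 in knockout and 1614 to 1887 in wildtype libraries, and went both ways. Lyve1 held 559, 379 and 545 in knockout and 265, 321 and 251 in wildtype libraries, and Mrc1 190 to 231 in knockout and 156 to 158 in wildtype libraries. Cd68 was lower, at 86, 85 and 73 in knockout and 95, 101 and 101 in wildtype libraries, and Cx3cr1 held 12 in knockout replicate 3 against 64 to 95 in wildtype libraries. The 10 endothelial genes, all tested, summed to 8517 to 9816 in knockout and 8664 to 8977 in wildtype libraries, and went both ways. Pecam1, Tie1 and Emcn were higher without overlap, where 11.0% of all tested genes were, and the others overlapped between groups. Emcn held 519, 481 and 592 in knockout and 378, 406 and 413 in wildtype libraries. Fabp4 held 1300, 1131 and 618 in knockout and 1006, 1047 and 1031 in wildtype libraries. Of 10 lymphocyte genes 5 were in the table, summing to 29 to 39 in knockout and 13 to 31 in wildtype libraries. The 6 smooth muscle genes, all tested, summed to 3659 to 4177 in knockout and 4056 to 4460 in wildtype libraries. Among them 3 were lower without overlap, where 10.9% of all tested genes were. Myh11 held 171, 227 and 216 in knockout and 303, 339 and 289 in wildtype libraries (log2 -0.61, standard error 0.12, limma adjusted p = 0.057). Acta2 held 863 to 912 in knockout and 986 to 1238 in wildtype libraries, and Cnn1 held 38 to 112 in knockout and 155 to 202 in wildtype libraries. Tagln, Pdgfrb and Rgs5 overlapped between groups, with Pdgfrb at 962 to 1117 in knockout and 923 to 965 in wildtype libraries. The part of these cells in the lower values was not tested.

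**Figure D5:**
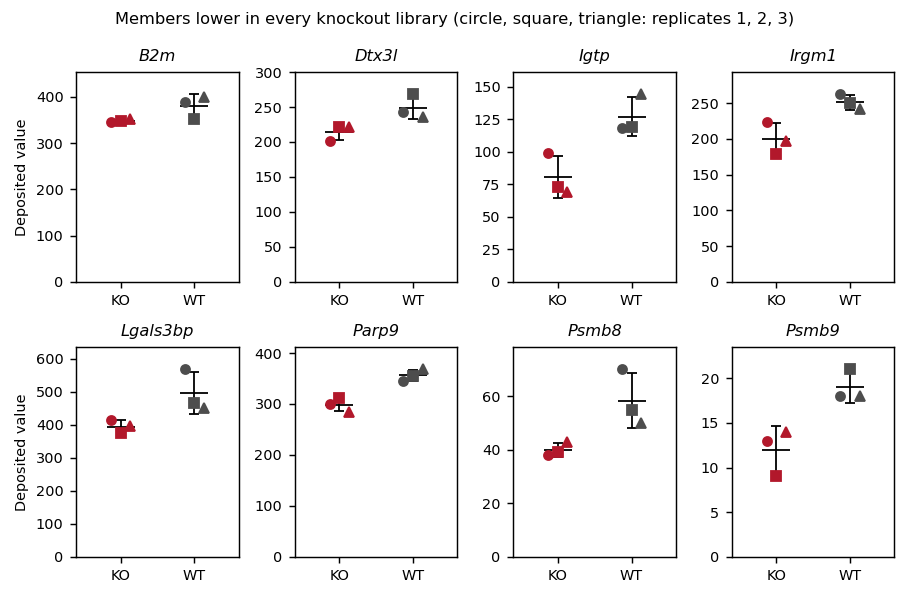
Deposited values are plotted for the 8 members whose groups do not overlap, with circles, squares and triangles for replicates 1, 2 and 3, horizontal bars for the mean and whiskers for 1 SD (n = 3). Each knockout point lies under each wildtype point, by a wide gap in Igtp (knockout 99 at most, wildtype 118 at least) and a narrow one in B2m (knockout 352 at most, wildtype 353 at least).

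The remaining effectors overlapped between groups. Ifitm3, which blocks the fusion of enveloped viruses, held 247 to 280 in knockout and 272 to 298 in wildtype libraries. Bst2, the tether that holds budding virus at the membrane, held 106 to 169 in knockout against 122 to 149 in wildtype libraries. Ifi27, a mitochondrial protein, held 144, 131 and 159 in knockout against 117, 129 and 135 in wildtype libraries. Ifi35, Rtp4 and Xaf1 held 140 to 162, 88 to 131 and 132 to 148 in knockout libraries, against 141 to 160, 93 to 133 and 117 to 150 in wildtype libraries. Per kilobase of exon, the highest members were B2m, at 405 in knockout and 443 in wildtype hearts, and Ifitm3, at 393 in knockout and 425 in wildtype hearts. The lowest were Zbp1, at 2.55 in knockout and 3.5 in wildtype hearts, and Psmb9, at 3.28 in knockout and 5.19 in wildtype hearts. In recovered reads per base of exon, averaged over the 6 libraries, B2m held 0.4257 and Ifitm3 0.4116, the 2 members above 0.3. No gene with an exon length went above 0.9252 on that scale, and the cardiomyocyte marker Actc1 held 0.9187. Whether values of such abundant genes are compressed, which would understate their fold changes, was not tested.

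The other genes of the pathway were read from lists of 202 symbols, none of them members, of which 172 were in the table and 141 were tested. By limma 0 rose and 2 fell, namely H2-K1 and Slfn9, which is 1.42% of them lower. At an unadjusted p under 0.05, 6 were higher (4.26%) and 18 lower (12.8%), and the groups did not overlap in 10 higher (7.09%) and 24 lower genes (17%). The shares over all tested genes are those given above. The median log2 fold change was -0.06. Of the 12 listed interferon genes themselves, 0 were among the genes tested. Slfn9, a schlafen family gene, held 72, 101 and 64 in knockout and 173, 165 and 169 in wildtype libraries, or 79 ± 19.5 in knockout and 169 ± 4 in wildtype hearts (SD, n = 3 each; log2 -1.11, standard error 0.17, limma adjusted p = 0.0282). It was the gene called among 59 tested interferon-induced genes outside the members, and its call was also lost in the fits named for H2-K1.

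Of 11 tested receptor, kinase and STAT genes 0 passed by limma, and before adjustment 1 was higher and 2 lower at p under 0.05. Over all tested genes, 8.54% were higher and 7.86% lower at that p. Jak1, the kinase common to both interferon receptors, had the smallest p, with 915, 915 and 1037 in knockout against 1184, 1239 and 1206 in wildtype libraries (log2 -0.34, standard error 0.07, limma adjusted p = 0.0571). The type I receptor chain Ifnar1 held 573 to 591 in knockout and 543 to 580 in wildtype libraries. Of 19 tested genes of nucleic acid sensing 0 passed, and before adjustment 0 were higher and 3 lower at p under 0.05. Rnaseh2b, a subunit of the enzyme that removes RNA from DNA hybrids, had the smallest p, with 157, 153 and 159 in knockout against 204, 215 and 244 in wildtype libraries (log2 -0.49, standard error 0.10, limma adjusted p = 0.0603). Of 10 inhibitors of the pathway 0 passed, and Ptpn11, the phosphatase SHP2, held 1320, 1206 and 1237 in knockout against 910, 1147 and 973 in wildtype libraries (log2 0.32, standard error 0.09, limma adjusted p = 0.13). Of 5 tested interferon regulatory factors outside the members 0 passed, and Irf3 held 477, 466 and 516 in knockout against 418, 416 and 444 in wildtype libraries (log2 0.19, standard error 0.07, limma adjusted p = 0.222).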

How the data were processed

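Stranded mRNA libraries of mouse hearts were read from a single end, as the labels' protocols state. The submitters' processing notes name, without role or order, DESeq2 1.36.0, featureCounts 2.0.4, Picard 3.0.0, STAR 2.7.11a, Trimmomatic 0.39 and the build mm39. The deposited values are a score that the authors made: read numbers times a factor for each library, rounded, as found from the spacing of the whole numbers in each library. As they are not raw counts, limma 3.58.1 in R 4.3.3 was run on log2(value + 1), with trend and robust moderation, on all 6 libraries with no covariate, after a filter of 10 in at least 3 libraries. p-values are two-sided and were adjusted by the Benjamini-Hochberg method over all 14974 tested genes, with a threshold of 0.05, and fold changes understate those of low genes. The scripts were tested on simulated data. The members and the lists were chosen with earlier results of these data known. Full statistics go to members whose adjusted p is under 0.05 or whose groups do not overlap, otherwise to the smallest p of a role group, and in the pathway lists to each called gene or else the smallest p. Other members with statistics, and other genes named as such, were chosen after their values were seen. Exon lengths came from GENCODE M21 (GRCm38), matched by identifier for all 38 members.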

Additional observations from a re-analysis of the deposited data

How the results depend on the processing

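The 11 members given by rule kept the sign of their fold change in all 18 alternatives, and their call in each but 1, Ifit1 without knockout replicate 3. The count of changed members was 0 in the others, 0 to 1 when a library was left out. The count of changed genes, 141, was 218 with no filter on low values, 24 without trend or robust moderation, 72 by voom, 23 in the fit with the replicate block, 223 with a term for sex, 259 in the libraries with low Xist, and 0 to 703 when a library was left out (0 without wildtype replicate 2 or 3, 703 without knockout replicate 3). Without wildtype replicates 2 and 3 in turn, 2145 and 1823 genes had p under 0.05 before adjustment. The 2 changed pathway genes, H2-K1 and Slfn9, numbered 0 without trend or robust moderation and 0 under the block, 5 in the libraries with low Xist, and 0 to 5 when a library was left out: 0 without knockout replicate 1 and without each wildtype replicate in turn. Members without overlap in either direction, 8, numbered 19 in the libraries with low Xist and 9 to 18 when a library was left out. Fewer libraries make a gap easier. Without knockout replicate 3, 17 of 37 members were lower and 1 higher without overlap, against 18% and 17.1% of the genes tested in that fit. In the libraries with low Xist, 17 of 37 were lower and 2 higher, against 21.2% and 21.1% of the genes tested in that fit. The members' median stayed below 0 throughout. The terms for sex and low Xist were chosen after seeing the data. Same-numbered libraries did not deviate together (correlations of -0.169, -0.111 and -0.13), so the block is not a pairing, and it called 0 members.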
